A study of Homo sapiens with 6 samples.

Results

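The genes described here are the 83 genes for the proteins of the cytosolic ribosome that were counted in SU-DHL-8 cells, chosen by symbol. A gene was taken where its symbol was RPL or RPS followed by a number and at most a short ending, or was RPLP0, RPLP1, RPLP2, RPSA or RPL36AL, and where it had at least 20 counts over the 6 libraries. This gave 83 of 65746 symbols, of which 18157 had a count. They were 52 genes named for the large subunit and 31 named for the small subunit. The matching symbol RPS27L, a stress-responsive relative of RPS27, was set aside, and RPL10L, a retrocopy of RPL10, fell under the count minimum. The rule used no expression value beyond that minimum, though it was set with earlier results of these data known. All 83 genes passed the filter on low counts in both fits described here.

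SU-DHL-8 is a cell line established from a human lymphoma of the diffuse large B-cell type, labelled wild type. The cells had received 100 nM erianin, a plant bibenzyl that binds tubulin, for 24 h (3 libraries), and the control cells had received DMSO, the solvent, for 24 h (3 libraries). Total RNA was sequenced. The libraries are numbered as replicate experiments, but it is not stated whether they came from separate cultures. P-values here rest on library-to-library spread alone, some of which may be technical.

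The cytosolic ribosome joins a small subunit, which reads the mRNA, to a large subunit, which forms the peptide bond and guides the new chain out through a tunnel. Its proteins are needed in matched amounts, and those left unassembled are degraded, while RPL5 and RPL11 with the 5S RNA can bind MDM2 and so stabilise p53. Most of their mRNAs begin with a C and a run of pyrimidines, the TOP start, through which LARP1 and the kinase mTOR, downstream of PI3K and AKT, set how much of each mRNA is kept and translated. B-cell lymphomas often carry high MYC activity, which is known to raise transcription of these genes.

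The TOP start can be read in the promoter windows that RefSeq lists on build GRCh38.p14. A TOP start was scored where the listed start was a C followed by at least 4 bases that were each C or T, on the strand of the gene. Of the 83 genes, 66 had an entry, and 47 of these 66 (71.2%) had a TOP start at 1 or more listed starts. The share was 4.07% of all 35116 listed promoters and 7.60% of 9235 tested genes with an entry. The windows below show 30 bases before the start and 20 from it, with the unbroken run of C and T at the start in capitals. RPLP0, RPL7A and RPL18 are shown because they were among the genes with the largest falls, RPL3 because it fell with a run of C and T one base too short for the score, RPS12 because its level was lowest in one control library, and RPL26, RPL17 and RPL7L1 because they rose.
RPLP0: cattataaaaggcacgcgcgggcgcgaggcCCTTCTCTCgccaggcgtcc
RPL7A: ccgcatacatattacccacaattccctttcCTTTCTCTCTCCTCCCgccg
RPL18: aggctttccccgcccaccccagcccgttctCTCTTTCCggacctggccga
RPL3: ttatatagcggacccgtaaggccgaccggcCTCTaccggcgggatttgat
RPS12: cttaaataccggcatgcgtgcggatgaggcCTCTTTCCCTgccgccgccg
RPL26: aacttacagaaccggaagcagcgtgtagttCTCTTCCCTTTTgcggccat
RPL17: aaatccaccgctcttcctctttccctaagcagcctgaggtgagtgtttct
RPL7L1: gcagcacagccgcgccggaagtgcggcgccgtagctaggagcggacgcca
The windows are RPLP0 at chr12:120201092-120201141 on the minus strand, RPL7A at chr9:133348188-133348237 on the plus strand, RPL18 at chr19:48619159-48619208 on the minus strand and RPL3 at chr22:39319604-39319653 on the minus strand. The others are RPS12 at chr6:132814539-132814588 on the plus strand, RPL26 at chr17:8383174-8383223 on the minus strand, RPL17 at chr18:49492446-49492495 on the minus strand and RPL7L1 at chr6:42879586-42879635 on the plus strand.

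Total counts per library were 32844464 to 35307027 with erianin and 30956443 to 35588728 with DMSO, so that 3 counts equal 0.0819 to 0.0985 CPM (counts scaled to library size, here with TMM factors). All 8 B-cell markers checked were counted in all 6 libraries, at a summed 2312 to 2584 CPM with erianin and 2740 to 3757 CPM with DMSO. Of the markers of other cell types, CD3G and CD2 of T cells, HBB of red cells and DCN of fibroblasts were at 0 in each library. The 4 myeloid markers summed to 9.36 to 10.6 CPM with erianin and 4.30 to 7.27 CPM with DMSO, most of it from LYZ, at up to 8.63 CPM. CSF1R was also counted in all 6 libraries, and CD14 in 5. The T-cell, red-cell and fibroblast lists each summed to under 1 CPM in every library, with COL1A1 counted in all 6. The B-cell sum was thus lower and the myeloid sum higher in the erianin libraries, and their part in the values given here was not tested. In RNA from whole cultures, fewer cells of a kind and less RNA per cell cannot be told apart.

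One control library, DMSO replicate 1, differed from the remaining 5 in these genes. Of 80 genes with at least 1000 counts, 62 were lower in it than in both other DMSO libraries and 13 were higher than in both. The median difference of DMSO replicate 1 from DMSO replicates 2 and 3 was -0.62 on the log2 scale, with a range of -2.60 to 0.76, and 27 of the 80 genes were lower by 2-fold or more. In the 10 pairs of libraries without it, the median size of the log2 difference was 0.07 to 0.24 and no gene differed by 2-fold or more. In the 5 pairs with it, the median was 0.48 to 0.66, and 20 to 27 genes differed by 2-fold or more.

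The genes that set this library apart were of both subunits. RPLP1, an acidic protein of the stalk that recruits elongation factors, had 2292, 2303 and 2740 CPM with erianin, against 464, 2566 and 3045 CPM with DMSO. RPS12, a small-subunit protein near the beak, had 3493, 3468 and 3757 CPM with erianin, against 708, 3287 and 3679 CPM with DMSO. RPL10, which is loaded last and completes the large subunit, had 1955, 1749 and 1919 CPM with erianin, against 564, 2188 and 2259 CPM with DMSO. In all 3 genes DMSO replicate 1 was several-fold under every other library. The remaining DMSO libraries overlapped the erianin libraries in RPLP1 and RPS12, and lay above all of them in RPL10. RPS19, the gene most often mutated in Diamond-Blackfan anaemia, had 1768, 1739 and 1950 CPM with erianin, against 551, 2040 and 2076 CPM with DMSO. The opposite was seen for the large-subunit gene RPL24, with 869, 838 and 866 CPM with erianin, against 1453, 930.0 and 833 CPM with DMSO. Levels in this library thus differed in both directions. The main counts of genes called are given with and without it. Many values of single genes are given without it only, and none of the 83 genes was called with all 6 libraries (edgeR).

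**Figure D1:**
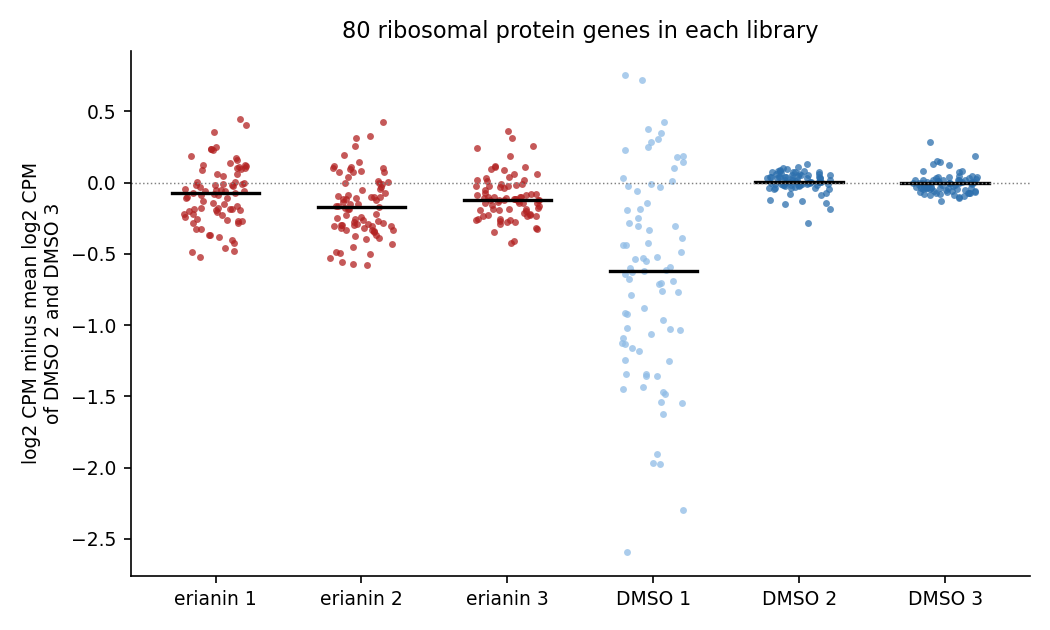
Each point is 1 of the 80 ribosomal protein genes with at least 1000 counts, plotted as its log2 CPM in a library minus its mean log2 CPM in DMSO replicates 2 and 3, with the median as a black line. The points of DMSO replicate 1 spread from -2.60 to 0.76, while the other 5 libraries stay in a narrow band.

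The genes together took 12.0%, 11.5% and 12.0% of all counts in erianin replicates 1, 2 and 3. They took 8.56%, 12.5% and 12.4% in DMSO replicates 1, 2 and 3. The erianin libraries thus lay above DMSO replicate 1 and under DMSO replicates 2 and 3, and the groups overlapped. Means were 11.8% ± 0.309 with erianin and 11.2% ± 2.26 with DMSO (SD, n = 3 each), and DMSO replicates 2 and 3 averaged 12.5%. Both subunits followed the same order, and the ratio of large-subunit to small-subunit counts was 1.41 to 1.44 with erianin and 1.41 to 1.46 with DMSO. In the deposited TPM, which are scaled to gene length, the genes took 14.3% ± 0.224 of the TPM sum with erianin and 13.3% ± 2.53 with DMSO (SD, n = 3 each). The TPM of the symbols kept summed to 391827 in DMSO replicate 1, and to 635739 to 667491 in the other libraries. The denominator of this share thus also differed in DMSO replicate 1, where the share was 10.3%.

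**Figure D2:**
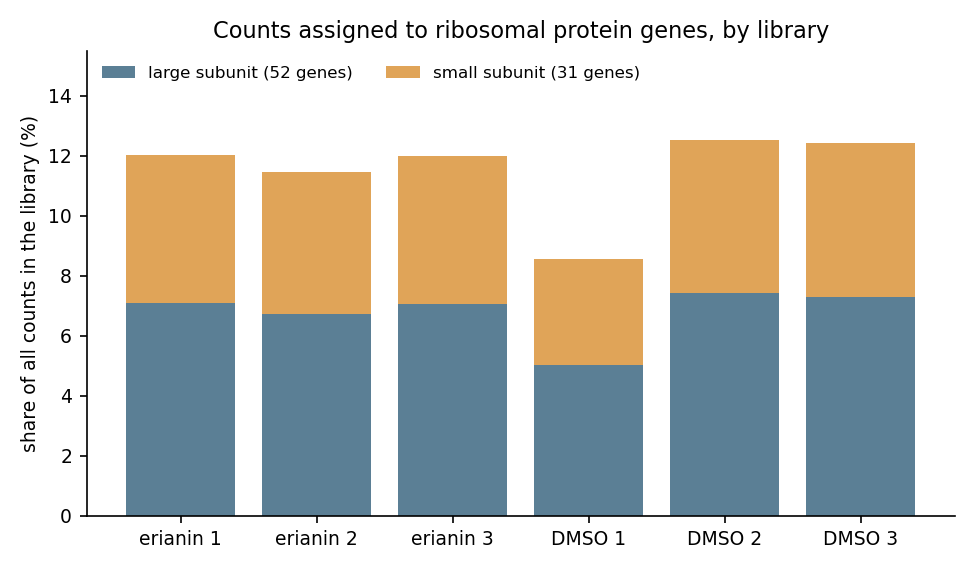
Stacked bars give the percent of all counts in each library assigned to the 52 large-subunit and 31 small-subunit genes. The total is 11.5% to 12.0% in the erianin libraries, 8.56% in DMSO replicate 1, and 12.5% and 12.4% in DMSO replicates 2 and 3.

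Per length, RPS12 held the largest part of the summed TPM of these genes, 16.1% ± 0.498 with erianin (SD, n = 3) and 14.1% as the mean of DMSO replicates 2 and 3. It was 4.49% in DMSO replicate 1. RPS18, RPS6 and RPS27 followed, with 3.48%, 3.26% and 3.06% of the summed TPM with erianin and 3.62%, 3.26% and 3.15% in DMSO replicates 2 and 3, and kept places 2 to 4 in both. The TPM use 1 fixed length per gene, so a gene given a short length stands high in this order.

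With all 6 libraries, none of the 83 genes passed the test at an adjusted p of 0.05 (edgeR quasi-likelihood test, adjusted over 11550 genes). In the same fit 11.8% of all genes tested were called higher and 12.3% lower with erianin. At an unadjusted p under 0.05 there were 4 of the genes, among them RPL26 and RPL7L1 with a positive log2 fold change and RPL28 with a negative one. DESeq2's Wald test called 1 higher and 2 lower, and limma-voom called none. The median log2 fold change was 0.0039 over the 83 genes and -0.0033 over all genes tested, and 42 of the 83 were above 0. The median standard error (SE) was 0.20 on the log2 scale, against 0.06 with DMSO replicate 1 left out.

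Several of the genes with the largest values in this fit were those in which DMSO replicate 1 differed most. Among the largest positive log2 fold changes of genes with at least 1000 counts were 0.63 for RPL17 and 0.48 for RPS12. RPL26, RPS29, RPL34, RPL31, RPS27A and RPL30 followed, at 0.46 to 0.36. Among the most negative were -0.32 for RPL24, -0.31 for RPS6, -0.31 for RPL28 and -0.30 for RPS2, then RPS26, RPLP0 and RPL11, at -0.24 to -0.18. Their adjusted p-values in edgeR ran upward from 0.059, for RPL26. In 13 of the 83 genes (15.7%) the 3 erianin libraries did not overlap the 3 DMSO libraries, against 46.8% of all genes tested. Among these 13 were RPL5, RPL6, RPL11, RPL17, RPL23, RPL26, RPL28, RPL30, RPL7L1, RPS4X, RPS7 and RPS26.

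With DMSO replicate 1 left out, 33 of the 83 genes were called lower and 6 higher with erianin, while 27.4% of 11773 genes tested were called lower and 27.8% higher. Lower calls were made for 21 of 52 large-subunit genes and 12 of 31 small-subunit genes, and higher calls for 5 and 1. The median log2 fold change was -0.11 over the genes and 0.03 over all genes tested. The changes were small: no gene with at least 1000 counts moved by more than 0.49 on the log2 scale. Of the 43 genes that each held at least 1% of the counts of the family, 27 were called lower and 1, RPL6, higher. This fit sets 3 erianin libraries against 2 DMSO libraries. With DMSO replicate 2 left out as well, 21 were called lower and 2 higher, against 22% and 18.9% of all genes tested. With erianin replicate 3 left out as well, 43 were called lower and 13 higher, against 32.1% and 31%.

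The direction of the family as a whole depended on the scaling. Scaled to total counts alone, 19 of the genes were called higher and 15 lower, with 36.9% and 20.3% of all genes tested. Their median was then 0.0053, and that of all genes tested 0.14. The median of the genes minus the median of all genes tested was -0.14 with TMM. A scaling factor moves all genes of a library alike, so other factors leave this difference as it is by construction. With offsets for GC content and length it was -0.15, with 3 of the genes called higher and 60 lower, against 24.6% and 37.2% of all genes tested. With all 6 libraries and TMM the same difference was 0.0073.

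Of the 33 genes called lower with TMM, 15 were also called lower with upper-quartile scaling and with total counts alone. Among them were RPS2, RPLP0, RPL13, RPL18, RPL7A, RPS9, RPL8, RPL3, RPL13A, RPL28, RPL32 and RPSA, and all 15 were called lower with the GC and length offsets too, and with any further library left out. All 6 genes called higher with TMM were called higher with both of those scalings. Of these, RPL26, RPL26L1 and RPL7L1 were also called higher with the offsets. In 47 of the 83 genes (56.6%) the 3 erianin libraries did not overlap DMSO replicates 2 and 3, against 68.9% of all genes tested.

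**Figure D3:**
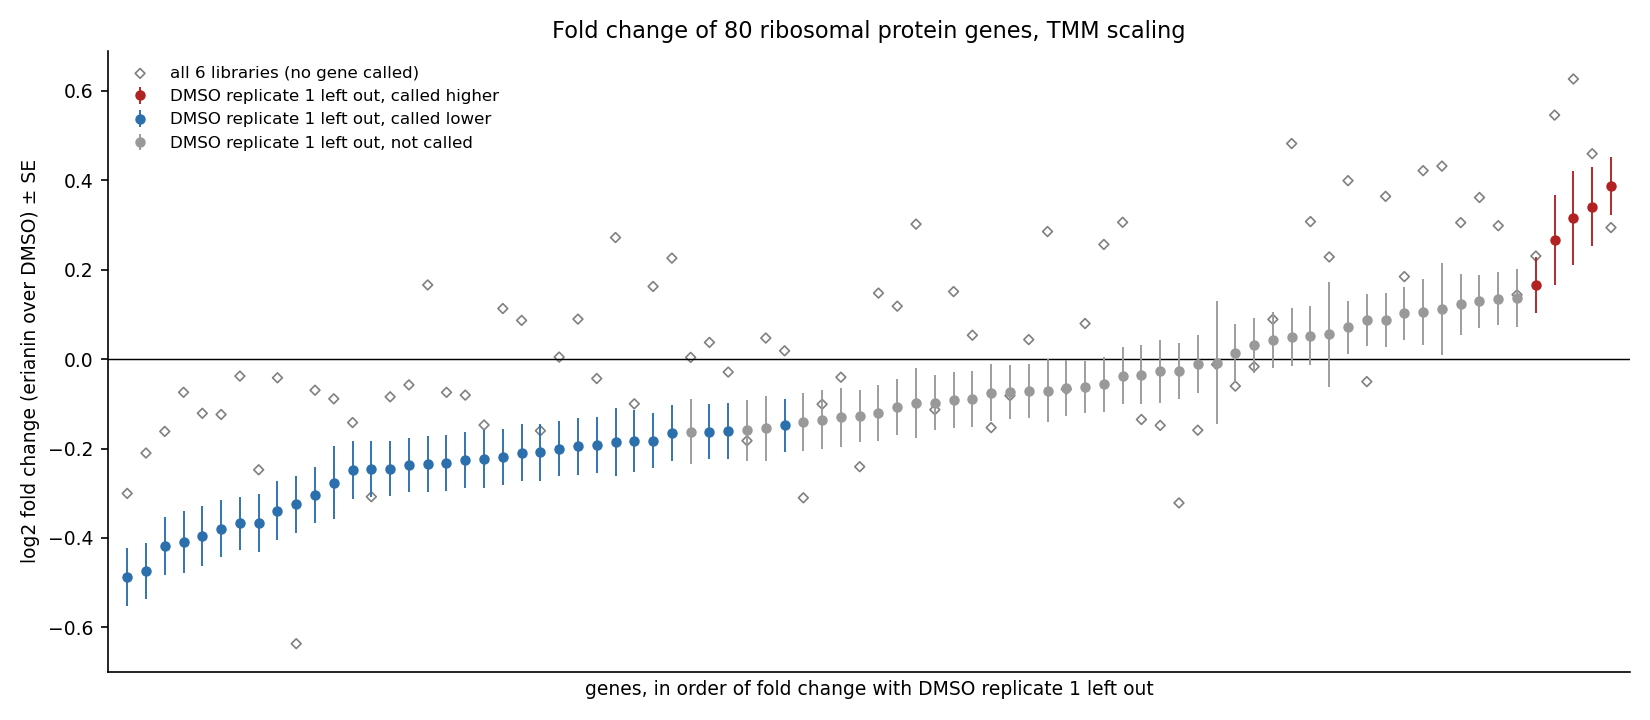
Log2 fold change of the 80 ribosomal protein genes with at least 1000 counts, erianin over DMSO with TMM scaling, with 1 gene per position on the horizontal axis, ordered by the value with DMSO replicate 1 left out (filled circles, bars are 1 SE, coloured by call). Open diamonds give the value with all 6 libraries, in which no gene was called. With total counts alone the circles move up, and 19 genes of all 83 are called higher and 15 lower.

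In the small subunit, RPS2 and RPS9 were among the genes with the largest falls without DMSO replicate 1. RPS2, at the channel entry, had 4330, 4183 and 4690 CPM with erianin, against 3813, 6389 and 6059 CPM with DMSO. All 3 erianin libraries were under DMSO replicates 2 and 3 and above DMSO replicate 1. Without that library its level fell by 29.3% (log2 fold change -0.49, SE 0.06, adjusted p = 5.76e-07 in edgeR), and with it the log2 fold change was -0.30 (adjusted p = 0.310). RPS9, another protein of the entry side, had 1434, 1461 and 1536 CPM with erianin, against 704, 1918 and 1926 CPM with DMSO, and fell by 23.2% without DMSO replicate 1 (log2 fold change -0.37, SE 0.06, adjusted p = 1.04e-05). RPS3, the third protein of the entry and also a DNA repair factor, was not called, with 3153, 3182 and 3346 CPM with erianin, against 1658, 3362 and 3720 CPM with DMSO and a log2 fold change of -0.12 (adjusted p = 0.109). The exonic bases of RPS2 are shared in part with other genes on the same strand (25.6%, with 2 snoRNA genes among them), and the RPS2 count may hold reads from these or from its processed copies.

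RPSA, the laminin receptor precursor of the small subunit, fell by 15.9% without DMSO replicate 1, with 2814, 2606 and 2699 CPM with erianin, against 2016, 3202 and 3232 CPM with DMSO. RPS14, deleted in the 5q- syndrome, RPS19, RPS27, a zinc-finger protein, and RPS16, RPS18 and RPS28 were called lower with TMM, at -0.21 to -0.17, and were not called with total counts alone. With all 6 libraries none of these genes was called, and the log2 fold change of RPSA was -0.06.

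Several small-subunit genes of known regulatory interest were not called in either fit. RPS6, the target of S6 kinases, had 3000, 2770 and 2741 CPM with erianin, against 4240, 3317 and 2995 CPM with DMSO. The erianin libraries overlapped DMSO replicate 3 and lay under DMSO replicate 1, the highest. RPS27A, made as a fusion with ubiquitin, had 994, 960.2 and 932 CPM with erianin, against 416, 885 and 942 CPM with DMSO. RPS4X had 1999, 1855 and 1912 CPM with erianin, against 2088, 2124 and 2024 CPM with DMSO, and the groups did not overlap. RPS26, whose protein contacts mRNA upstream of the start codon, had 944, 932 and 974 CPM with erianin, against 1274, 1042 and 1052 CPM with DMSO, and its log2 fold change was -0.13 without DMSO replicate 1 (adjusted p = 0.0664). RPS15, a neighbour of the decoding site, and RPS12 gave log2 fold changes of -0.16 and 0.05 in that fit.

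In the large subunit, 3 of the 4 genes of the stalk that recruits translation factors were called lower without DMSO replicate 1, and 1 of the 4 with total counts alone, where 27.4% and 20.3% of all genes tested were called lower. RPLP0, the base of the stalk, had 3511, 3235 and 3606 CPM with erianin, against 2310, 4836 and 4828 CPM with DMSO. It fell by 28.6% against DMSO replicates 2 and 3 (log2 fold change -0.47, SE 0.06, adjusted p = 6.18e-07) and was called lower under all 3 scalings. RPLP1 and RPLP2, its acidic partners, were at -0.19 and -0.16, called with TMM and not with total counts alone. RPL12, which binds beside them, was at -0.13 and was not called (adjusted p = 0.0976). With all 6 libraries none of the 4 was called, and RPLP1, at 0.27, had the opposite sign.

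Among the proteins of the large-subunit body, RPL13 had 2540, 2462 and 2948 CPM with erianin, against 1270, 3510 and 3590 CPM with DMSO. RPL18 had 1193, 1194 and 1394 CPM with erianin, against 767, 1626 and 1719 CPM with DMSO. In both genes the erianin libraries lay above DMSO replicate 1 and under DMSO replicates 2 and 3. RPL7A, the host of 4 snoRNA genes, had 3005, 2744 and 3109 CPM with erianin, against 1905, 3972 and 3774 CPM with DMSO. Without DMSO replicate 1, RPL13 fell by 25.4%, RPL18 fell by 24.7% and RPL7A fell by 23.8% (edgeR adjusted p = 1.84e-05, 2.10e-05 and 2.03e-05). RPL3, which reaches to the peptidyl transferase centre and was the most counted of the genes with erianin, had 4881, 4538 and 4905 CPM with erianin, against 3143, 6017 and 5872 CPM with DMSO and fell by 19.7% (adjusted p = 1.94e-04). RPL8, also near that centre, fell by 21.6%, with 3253, 3098 and 3620 CPM with erianin, against 1780, 4238 and 4246 CPM with DMSO. RPL13A, also studied as an inhibitor of translation after interferon, fell by 16.5%, RPL28 fell by 16.4% and RPL32 fell by 16.4%. RPL28 was the gene of these 3 with no overlap in any library, at 1570, 1598 and 1767 CPM with erianin, against 2173, 1955 and 1981 CPM with DMSO. With all 6 libraries the log2 fold changes of RPL7A and RPL3 were -0.12 and -0.07, and none of the genes of this paragraph was called.

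RPL10 was at -0.23 without DMSO replicate 1 (adjusted p = 0.00261), called with TMM and not with total counts alone, and at 0.17 with all 6 libraries. RPL4, which narrows the peptide tunnel, was at -0.07 and not called. Of the pair that carries the 5S RNA, RPL5 had 1461, 1441 and 1380 CPM with erianin, against 1086, 1325 and 1357 CPM with DMSO, and RPL11 had 2080, 1800 and 2011 CPM with erianin, against 2261, 2336 and 2089 CPM with DMSO. The erianin libraries were above all DMSO libraries for RPL5 and under all of them for RPL11. Neither was called with TMM, at 0.10 (adjusted p = 0.147) and -0.16 (adjusted p = 0.0503), and the difference between the 2 changes was not tested. RPL5 was called higher with upper-quartile scaling and with total counts alone, at 0.16 and 0.22, where RPL11 was not called. With the GC and length offsets RPL5 was at -0.04 and not called, and RPL11 was called lower at -0.25. RPL23, a further MDM2-binding protein, was at 0.14, and RPL22, which is lost in some lymphoid tumours, at -0.07, neither called.

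Of the 8 genes at the exit of the peptide tunnel, RPL17 and RPL26 were called higher and RPL19 lower without DMSO replicate 1. Of the 19 genes listed for Diamond-Blackfan anaemia, 2 were called higher, RPL26 among them, and 5 lower, RPS19, RPS27, RPS28, RPL15 and RPL18. The shares called higher and lower were 25% and 12.5% at the tunnel exit and 10.5% and 26.3% among the anaemia genes, beside 27.8% and 27.4% of all genes tested. None of either list was called with all 6 libraries. With total counts alone the counts were 3 higher and 0 lower at the tunnel exit, and 7 higher and 1 lower among the anaemia genes, beside 36.9% and 20.3% of all genes tested.

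Among the 6 genes called higher without DMSO replicate 1, RPL7L1 and RPL6 were abundant, and RPL26, RPL17 and RPL26L1 had few counts. RPL7L1, a relative of RPL7 with a role in making ribosomes, had 775, 765 and 673 CPM with erianin, against 667, 575 and 562 CPM with DMSO. The erianin libraries were above all DMSO libraries, and DMSO replicate 1 was the highest of these. RPL7L1 rose by 29.7% without DMSO replicate 1 (log2 fold change 0.39, SE 0.07, adjusted p = 1.77e-05), and its log2 fold change was 0.29 with all 6 libraries (adjusted p = 0.103). RPL6 had 1823, 1665 and 1677 CPM with erianin, against 1306, 1592 and 1504 CPM with DMSO, a rise of 11.2% without DMSO replicate 1 (log2 fold change 0.17, SE 0.06, adjusted p = 0.0269). RPL26, whose protein also binds p53 mRNA, had 26.4, 25.0 and 23.8 CPM with erianin, against 14.7, 19.7 and 20.2 CPM with DMSO (log2 fold change 0.34, SE 0.09, adjusted p = 0.00207). RPL17 had 13.6, 14.4 and 14.9 CPM with erianin, against 4.56, 11.9 and 11.4 CPM with DMSO. In RPL26 and RPL17 the groups did not overlap in any library. With a further library left out, the call of RPL7L1 was kept each time. That of RPL26 was lost without DMSO replicate 2 (log2 fold change 0.30) and that of RPL17 without DMSO replicate 2 (0.33) or 3 (0.26). That of RPL6 was lost without DMSO replicate 2 (0.19), DMSO replicate 3 (0.10) or erianin replicate 1 (0.12), and also with DESeq2 size factors.

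RPL26 and RPL17 were counted at a small part of the level of most core ribosomal protein genes, as were RPS10 at 2.40 ± 0.432 CPM and RPL36A at 6.96 ± 0.732 CPM with erianin (SD, n = 3). RPL17 and RPS10 share 32.7% and 39.4% of their exonic bases with readthrough genes and others on the same strand, and RPL26 shares 14.3%. How reads over such genes were assigned is not given in the sources used here, so the values of these genes are uncertain. RPL26L1, a relative of RPL26, had 15, 20 and 17 counts with erianin, against 13, 2 and 4 counts with DMSO. It was called higher without DMSO replicate 1 (adjusted p = 0.00183), where the DMSO level rests on 2 and 4 counts, and was not called with it (adjusted p = 0.152).

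**Figure D4:**
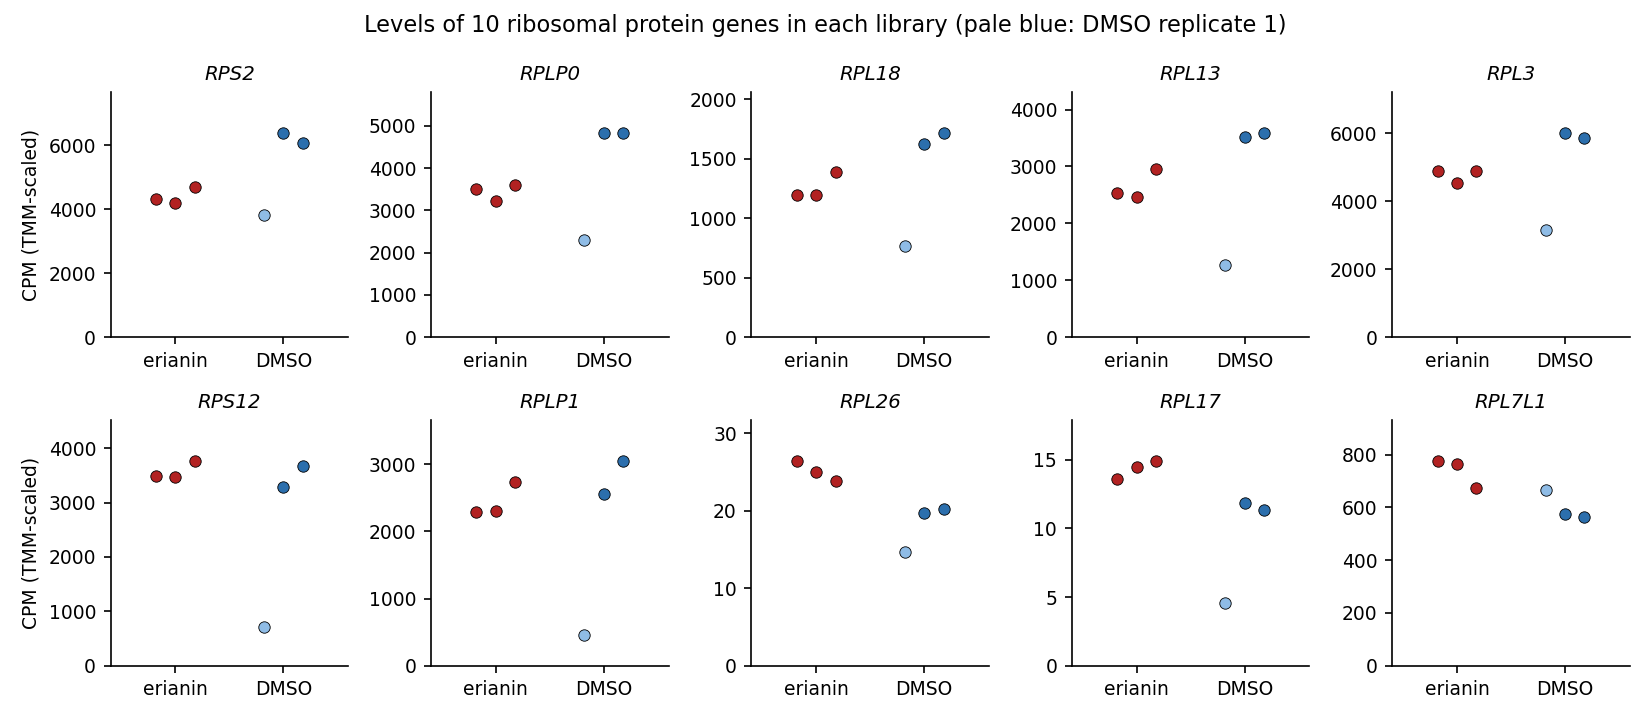
CPM of 10 ribosomal protein genes in each library, erianin at left and DMSO at right, with DMSO replicate 1 in pale blue and each axis starting at 0. In RPS2, RPLP0, RPL18, RPL13 and RPL3 the erianin libraries lie under DMSO replicates 2 and 3 and above DMSO replicate 1, in RPS12 and RPLP1 they overlap the range of DMSO replicates 2 and 3, and in RPL26, RPL17 and RPL7L1 they lie above all DMSO libraries.

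Changes within the family were read by scaling each library to the summed count of the 83 genes, which shows change relative to that sum only. The sum rests most on the most counted genes, so the median gene can still differ from 0. With all 6 libraries none of the genes was called (edgeR), and the smallest p-values were those of RPL26, RPL17, RPS7 and RPL30 among others upward and of RPS2, RPL28 and RPS6 among others downward. Without DMSO replicate 1, 28 genes were called higher and 11 lower relative to the family, beside 42.3% and 15% of all genes tested on this scale. Among the 11 were RPS2, RPLP0, RPL13, RPL18, RPL7A, RPS9, RPL8 and RPL3, at -0.30 to -0.11 on the log2 scale. Those with the smallest p-values upward were RPL7L1 at 0.58, RPL6 at 0.36, RPL23 at 0.33, RPS7 at 0.33 and RPL5 at 0.29. Of the 43 genes that held at least 1% of the counts of the family, 8 were called higher and 11 lower. Their median log2 fold change was 0.0022, against 0.08 over the 83 genes and 0.22 over all genes tested.

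The GC content of the transcript moved with these differences. Across 82 genes with a value, Spearman's rho between GC content and the log2 fold change without DMSO replicate 1 was -0.62, and across 11626 tested genes it was -0.18. Genes are not independent replicates, and the points share their libraries. Of the 16 genes under 45% GC, 2 were called higher and 1 lower, and of the 20 genes at 55% GC and over, 0 were called higher and 15 lower. Over all genes tested the shares in the lowest class were 37.2% higher and 16.1% lower, and in the highest class 20.4% higher and 37.9% lower. With offsets for GC content and length, rho was -0.32 in the family, and the median log2 fold change was -0.17 in the lowest and -0.25 in the highest class. The log2 difference of DMSO replicate 1 from the other DMSO libraries was also more negative at higher GC content, with rho of -0.31 in the family and -0.52 over all genes tested. For the log2 fold change with all 6 libraries, rho was -0.22 in the family and 0.01 over all genes tested. The part of GC content in the changes was not tested beyond the offsets.

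**Figure D5:**
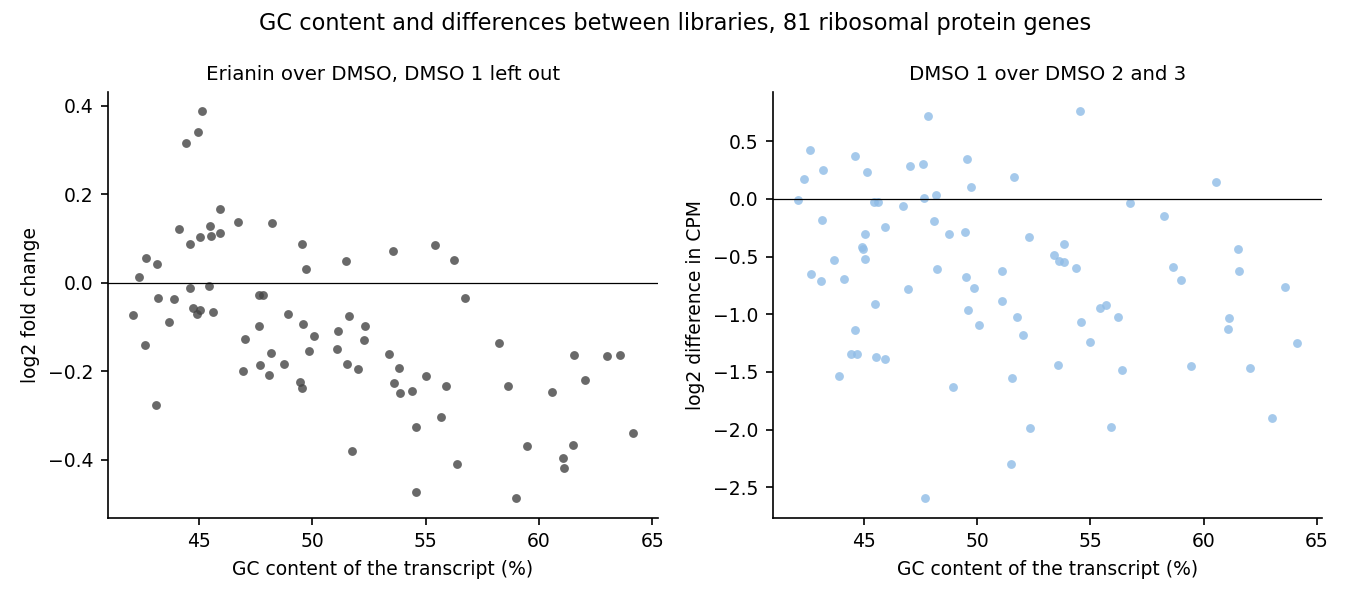
Each point is 1 of 81 ribosomal protein genes, all those with a GC value but RPL26L1, plotted by the GC content of its transcript in percent. The left panel gives the log2 fold change of erianin over DMSO without DMSO replicate 1 under TMM, and the right panel the log2 difference in CPM of DMSO replicate 1 from the mean of DMSO replicates 2 and 3. Genes at 55% GC and over are nearly all under 0 in the left panel, and with total counts alone its points move up.

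Level moved with the change as well. Spearman's rho between mean CPM and the log2 fold change without DMSO replicate 1 was -0.63 over 82 genes and -0.30 over all genes tested. With all 6 libraries it was -0.45 in the family.

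Genes with and without a listed TOP start had overlapping values. Without DMSO replicate 1 the median log2 fold change with TMM was -0.14 over the 47 genes with one (range -0.47 to 0.34) and -0.09 over the 19 without one (range -0.30 to 2.41). Of the genes with an entry, 21 of 26 called lower, 1 of 5 called higher and 25 of 35 not called had a TOP start. The gene called higher that had one was RPL26, and RPL6, RPL17, RPL26L1 and RPL7L1 had none in the listed windows. RefSeq lists few starts per gene, so a gene scored without a TOP start can have one at a start that is not listed.

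Other genes of the translation machinery were counted in the same fits. FAU, which encodes a further ribosomal protein as a ubiquitin-like fusion, and RACK1, a scaffold on the small subunit, were both called lower without DMSO replicate 1. RACK1 had 2598, 2471 and 2793 CPM with erianin, against 2099, 3631 and 3540 CPM with DMSO, and FAU had 431, 392 and 457 CPM with erianin, against 178, 509 and 507 CPM with DMSO. FAU was at -0.24 with TMM, and was not called with total counts alone. RACK1 was called with both, at -0.44 and -0.33. Neither was called with all 6 libraries. Of 25 other mRNAs listed as TOP mRNAs and tested, which include both, 11 were called lower and 1 higher without DMSO replicate 1, and 3 lower and 0 higher with all 6 libraries. The lower calls were 44% and 12% of the 25, beside 27.4% and 12.3% of all genes tested, and the higher calls 4% and 0%, beside 27.8% and 11.8%. With total counts alone and without DMSO replicate 1 the counts were 5 lower and 5 higher (20% each, beside 20.3% and 36.9% of all genes tested).

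Of 13 tested genes listed as elongation and release factors, 3 were called higher and 1 lower with all 6 libraries. Without DMSO replicate 1 the calls were 7 and 5. The 1 called lower with all 6 libraries was EEF2K, the kinase of EEF2 (log2 fold change -0.39, adjusted p = 0.0341 in edgeR). Without DMSO replicate 1 the median log2 fold change was 0.26, against -0.08 for the TOP mRNAs. Both lists hold EEF1A1, EEF1B2, EEF1D and EEF2, which were all called lower in that fit. Those called higher were ETF1, GSPT1, PELO, ABCE1, EIF5A, EIF5A2 and EEF1E1. As shares of the 13, the calls with all 6 libraries were 23.1% higher and 7.69% lower, beside 11.8% and 12.3% of all genes tested. Without DMSO replicate 1 they were 53.8% and 38.5%, beside 27.8% and 27.4%. The elongation factor EEF2, which moves the ribosome along the mRNA, had 8734, 8460 and 9616 CPM with erianin, against 9997, 13812 and 13811 CPM with DMSO. It fell without DMSO replicate 1 (log2 fold change -0.62, SE 0.07, adjusted p = 2.16e-08). EEF1A1, which delivers aminoacyl-tRNA, had 23245, 20857 and 21128 CPM with erianin, against 19809, 25646 and 24424 CPM with DMSO and was at -0.19, called with TMM and not with total counts alone. TPT1 and PABPC1, 2 abundant TOP mRNAs, were at -0.02 and 0.07 and were not called with TMM. Among initiation factors with TOP mRNAs, EIF3F had 318, 319 and 325 CPM with erianin, against 512, 497 and 483 CPM with DMSO. EIF3F and EIF4B fell in both fits, at -0.64 and -0.50 with all 6 libraries (adjusted p = 0.00427 and 0.0108). The release factor gene ETF1 rose in both fits, at 0.67 with all 6 libraries (adjusted p = 0.00750), and so did PELO, a rescue factor for stalled ribosomes, at 0.71 (adjusted p = 0.0180).

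Of 17 tested regulators of ribosomal protein mRNAs, 2 were called higher and 3 lower with all 6 libraries, and 6 and 8 without DMSO replicate 1. The shares were 11.8% higher and 17.6% lower with all 6 libraries, beside 11.8% and 12.3% of all genes tested, and 35.3% and 47.1% without DMSO replicate 1, beside 27.8% and 27.4%. LARP1 had 414, 406 and 443 CPM with erianin, against 611, 516 and 487 CPM with DMSO, with a log2 fold change of -0.24 called with TMM and not with total counts alone. PDCD4, an inhibitor of initiation degraded after S6 kinase signalling, fell in both fits, at -0.83 with all 6 libraries (adjusted p = 0.0106). RPS6KB2, an S6 kinase, fell without DMSO replicate 1, at -0.83 (adjusted p = 1.93e-10 in edgeR). RPS6KB1, a further S6 kinase, was called higher in that fit, at 0.33 (adjusted p = 0.00241 in edgeR). Neither was called with all 6 libraries. SSB, the La protein, rose in both fits, at 0.85 without DMSO replicate 1. Of 12 chaperones and importers of ribosomal proteins, 2 were called higher and 0 lower with all 6 libraries, and 4 and 3 without DMSO replicate 1 (33.3% and 25%, near the shares of all genes tested). HEATR3, which imports RPL5, and PDCD2, a chaperone of RPS2, rose in both fits, at 0.54 and 0.35 with all 6 libraries. TSR2, the chaperone of RPS26, fell without DMSO replicate 1, at -0.53. Of 9 promoter factors, 0 were called higher and 3 lower with all 6 libraries, SP1, E2F1 and GABPB1, and 1 and 4 without DMSO replicate 1 (11.1% and 44.4%, beside the same 27.8% and 27.4%). MYC had 416, 420.2 and 449.6 CPM with erianin, against 1007, 582 and 539.9 CPM with DMSO. Its log2 fold change was -0.38 without DMSO replicate 1 (adjusted p = 1.06e-05) and -0.73 with it (adjusted p = 0.0599), and DMSO replicate 1 was the highest library.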

How the data were processed

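RNA sequencing of 6 libraries from SU-DHL-8 cells was deposited as whole-number read counts per gene, which the authors did not normalize, and as a matching table of TPM by the authors. Per the submitters' processing notes, the tools were StringTie 2.2.1, featureCounts 2.0.1, STAR 2.7.10 and fastp 0.23.2, with GRCh38 (hg38) as build, and no role is stated for any of them. Not given in the sources used here are strand, annotation release and the handling of ambiguous reads, so overlapping genes and near-identical copies may have been merged or split. Each table had 65807 entries, and 61 repeats of a symbol were left out. Of the symbols beside TPM values, 7 were spelt otherwise and were replaced by those beside the counts.

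Genes were tested with the quasi-likelihood test of edgeR 4.0.16 (R 4.3.3) with TMM factors after filterByExpr, on all genes, with treatment as the single term and Benjamini-Hochberg adjustment over all genes tested, called at 0.05. The same fit was run without DMSO replicate 1, and with each library scaled to the summed count of the family. Log2 fold changes are erianin over DMSO, with SE as their size over the square root of F. Other settings used DESeq2 1.42.0, limma 3.58.1 and offsets per library for smooth trends in GC content and transcript length (mgcv 1.9.3). GC content, length and gene overlaps came from GENCODE release 29, matched by Ensembl identifier for 82 of the 83 genes. Promoter windows came from RefSeq (GRCh38.p14), with 250 bases before the listed start. Values were tabulated with pandas 2.3.3, scipy 1.17.1 and numpy 2.4.6 in Python 3.11.15 and drawn with matplotlib 3.10.9. Intervals and floors in counts cover counting error only.

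The genes and lists were chosen with earlier results of these data known. Genes were named with values by a rule: up to 10 with the smallest p or else the largest change in each direction with all 6 libraries, the highest and lowest 5 by CPM, relatives of core genes, genes with known roles, the 5 with the smallest p each way relative to the family, and a few genes per other list. RPS9, RPS16, RPS18, RPS28, RPL8, RPL15, RPL19 and RPL32 and the members of lists by call were named after their values were seen. Some genes that the rule or the counts include are not reported here by name. The edgeR fit was tested on simulated counts with 200 changed genes of 11441. For erianin against DMSO with 6 libraries, 88% of 2-fold and 38% of 1.5-fold changes were found, and 1.56% of 128 calls were false. With 5 libraries and 11483 genes, 79% and 23% were found. The simulated libraries shared a common spread and none stood apart, unlike DMSO replicate 1 in the data. These shares thus do not give the power of the fits with and without that library.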

Additional observations from a re-analysis of the deposited data

How the results depend on the processing

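Counts of ribosomal protein genes called and their direction depended on DMSO replicate 1 and, without it, on the scaling, and the cause was not tested. With all 6 libraries, where 0 were called higher and 0 lower, 2 were called higher with upper-quartile scaling and 1 with total counts alone. DESeq2's Wald test gave 1 higher and 2 lower, no filter 1 lower, limma-trend on log2(TPM + 1) and on log2(TPM + 0.1) 1 higher each, GC content and length offsets 1 higher and 5 lower, and limma-voom with sample quality weights 10 higher and 39 lower. Of all 11550 genes tested, the offsets called 1722 higher and 2532 lower, and the quality weights 3699 and 3709. Upper-quartile scaling called 1763 and 1093, total counts alone 1840 and 919, and the Wald test 1746 and 1897. The TPM scales called 1408 and 262, then 1263 and 245, and no filter 1263 and 1365 of 18157. With each library left out in turn, 0 to 6 were called higher and 0 to 33 lower, both upper ends without DMSO replicate 1, and 1 was called lower without DMSO replicate 3. The median log2 fold change of the ribosomal protein genes was 0.33 on both TPM scales, against 0.0039. That of all genes tested was 0.20 on log2(TPM + 1) and 0.28 on log2(TPM + 0.1). Without DMSO replicate 1, where 6 were called higher and 33 lower with a median of -0.11, the offsets gave 3, 60 and -0.21, upper-quartile scaling 13, 21 and -0.052, and total counts alone 19, 15 and 0.0053. Of all genes tested, the offsets called 24.6% higher and 37.2% lower. Upper-quartile scaling called 32.0% and 23.8%, and total counts alone 36.9% and 20.3%. These settings other than the offsets were chosen after seeing the data, as was leaving out a further library, which gave 2 to 13 higher, with the lowest count without DMSO replicate 2 and the highest without erianin replicate 3, and 21 to 43 lower, with medians of -0.153 to -0.094. Relative to the family, leaving out each library gave 0 to 28 higher and 0 to 11 lower.

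Over the other translation lists, 70 genes were tested, and 7 were called higher and 10 lower with all 6 libraries. These were 10% and 14.3%, beside 11.8% and 12.3% of all genes tested. DESeq2's Wald test gave 17 lower, and limma-voom with sample quality weights 21 higher and 28 lower. The TPM scales gave 2 and 1 lower, and the offsets 24 lower. The 24 were 34.3%, beside 21.9% of all genes tested. Leaving out each library gave 0 to 19 higher and 1 to 27 lower, and the offsets without DMSO replicate 1 gave 16 higher and 39 lower. The 16 and 39 were 22.9% and 55.7%, beside 24.6% and 37.2% of all genes tested. With the replicate block 0 ribosomal protein genes were called higher and 0 lower, with a median of 0.06, and the block with the offsets called 3 lower. Deviations of same-numbered libraries correlated at 0.17, -0.14 and 0.23, and those of differently numbered libraries at -0.29 to 0.25. The labels do not say that the numbers pair cultures, and they were not taken to pair the libraries. No symbol of the table is mitochondrially encoded, so that denominator could not be tried. Total counts alone shifted the median of all genes tested by 0.11 with all 6 libraries. Over the genes called without DMSO replicate 1 and these settings, 390 values kept their call, 78 lost it and none changed sign. For the genes named with all 6 libraries, 370 values stayed uncalled and 49 were called. Depth limits RPL26L1 and RPL3L, with at most 20 counts in every library.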

Other observations

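Relatives of core ribosomal protein genes differed in how they compared with their core gene. RPL7L1 had 45.9, 48.9 and 43.0 counts per 100 counts of RPL7 with erianin, against 48.2, 35.2 and 37.2 with DMSO, and RPL7 itself was at 0.04 without DMSO replicate 1 and not called. RPL39L, a relative of RPL39 best known from male germ cells, had 5.41, 5.66 and 6.30 counts per 100 of RPL39 with erianin, against 12.1, 6.73 and 6.91 with DMSO. All erianin libraries thus lay under all DMSO libraries. An exact test of this ratio gave p = 0.1, the smallest possible with 3 against 3 libraries, and 0.6 adjusted over 6 pairs of genes. RPL39L was called lower without DMSO replicate 1 (log2 fold change -0.28, SE 0.08, adjusted p = 0.00573 in edgeR), and not with total counts alone. RPL22L1 had 3.51, 3.82 and 2.91 counts per 100 of RPL22 with erianin, against 2.01, 2.72 and 3.56 with DMSO, and the groups overlapped. RPL36AL, counted far above RPL36A in every library, was at 0.01. RPL3L, the form of heart and skeletal muscle, had 8 to 12 counts per library with erianin and 7 to 13 with DMSO.

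RPS27L, set aside by the choice of genes and known as a p53-induced gene, had 11.8, 13.1 and 10.8 CPM with erianin, against 5.58, 7.15 and 9.76 CPM with DMSO. The erianin libraries were above all DMSO libraries. Its log2 fold change was 0.66 with all 6 libraries (adjusted p = 0.0589) and 0.50 without DMSO replicate 1 (adjusted p = 0.00224), where it was also called higher with total counts alone.

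Pseudogenes named after the 83 genes held 0.515% to 0.535% as many counts as the genes themselves with erianin, and 0.413%, 0.523% and 0.539% in DMSO replicates 1, 2 and 3, from 308 entries with a count. RPS2P5, with 7213 to 7848 counts with erianin, and 3226, 8185 and 9100 counts with DMSO, was at -0.28 without DMSO replicate 1 (adjusted p = 0.000402), beside -0.49 for RPS2. Reads of a gene and of its processed copies cannot be told apart in these counts where the sequences are alike.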
